A study of Mus musculus with 2 samples.

Results

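Cycling T cells were examined in 2 single-cell RNA-seq libraries of CD45+ immune cells from B16-F10 tumors, a mouse melanoma line grown under the skin. Cells were selected on measured UMI counts, and a cell was taken as a cycling T cell if it had at least 2 unique molecular identifiers (UMIs, each a counted RNA molecule) of the CD3 genes Cd3d, Cd3e and Cd3g, at least 2 of the proliferation genes Mki67 and Top2a, none of Foxp3, at most 5 of the complement genes C1qa, C1qb and C1qc, and less than 10% mitochondrial UMIs. Of 12078 cells under the mitochondrial limit, 316 met the rule, 188 of 6284 in the library labelled Irg1+/+ and 128 of 5794 in the library labelled Irg1-/-. The mice carried either the intact Irg1 gene (Acod1 in the annotation) or its disruption in all tissues, as the study describes them, and no animal age was used here. Each mouse received 200000 tumor cells, tumors were taken on day 10, and 100 mm3 pieces from 3 mice of a genotype were pooled and sorted. Each genotype therefore had 1 library, a test between genotypes was not possible, and intervals are 95% intervals that cover counting error only. Genotype, the pool of mice and the preparation of the library cannot be told apart.

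T cells divide after their antigen receptor and costimulatory receptors are engaged, and an expanding CD8+ clone acquires granzymes and perforin for killing. Mki67 encodes the proliferation antigen Ki-67 and Top2a the topoisomerase that untangles replicated chromosomes, and both are made mostly from S phase to mitosis. In tumors, dividing CD8+ cells often carry inhibitory receptors such as PD-1, whereas Tcf7 and Il7r mark naive, memory and stem-like T cells.

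Irg1 encodes the enzyme that makes itaconate, mainly in myeloid cells, and lies on chromosome 14 (GRCm38, chr14:103046977-103056573, plus strand). In cycling T cells Acod1 had 34 UMIs, or 27.9 CPM (counts scaled to 1000000 per sum), in the Irg1+/+ library and 28 UMIs, or 29.0 CPM, in the Irg1-/- library. Over all kept cells it had 87.8 and 108 CPM. Acod1 UMIs thus did not separate the libraries, so the genotypes below are those of the labels.

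The cycling T cells held a median of 5618 UMIs and 2427.5 genes in the Irg1+/+ library and 7293 UMIs and 2811 genes in the Irg1-/- library, with ranges of 497 to 21511 and 520 to 21735 UMIs. Non-cycling T cells, which passed the same gate with no Mki67 or Top2a UMI, numbered 653 and 433 and were shallower, with medians of 3239 and 2741 UMIs. The sums below rest on 1217427 and 965944 UMIs, and CPM leave out mitochondrial genes. The libraries shared 36 cell barcodes, which 2 Irg1+/+ cycling T cells carried, and no barcode was shared among the cycling T cells of both libraries.

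Most cells carried T cell transcripts beyond those of the rule. Trac, which encodes the constant part of the T cell receptor alpha chain, had a UMI in 87.2% (81.6 to 91.6) of Irg1+/+ and 82.0% (74.3 to 88.3) of Irg1-/- cycling T cells. Its share was 27% and 10.3% in B cells (Cd79a and Cd79b at least 2 UMIs together, no CD3 UMI, median depths 2214 and 2160 UMIs) and 43.9% and 41.5% in C1q macrophages (C1q genes at least 20 UMIs, no CD3 UMI, median depths 7977 and 8594 UMIs). With each cell thinned to 2000 UMIs, the shares were 73.6% and 73.0% in cycling T cells, 14.3% and 11.5% in B cells and 14.9% and 11.2% in macrophages. The thinning left out 25 and 17 cycling T cells that were shallower. Pclaf, a partner of the replication clamp and a given marker of these cells, had 507 and 544 CPM, against 36.2 and 39.7 CPM in non-cycling T cells.

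The label held best for cells with many CD3 UMIs. Of the cycling T cells, 84 Irg1+/+ and 58 Irg1-/- cells had 10 or more CD3 UMIs. In these the other T cell transcripts (Trac, Trbc1, Trbc2 and Cd2 together) had medians of 34 and 47.5 UMIs. Another 56 and 42 cells had only 2 or 3 CD3 UMIs, and their medians of other T cell transcripts were 3 UMIs in both libraries. MHC class II transcripts (H2-Aa, H2-Ab1 and Cd74), which present antigen in macrophages, dendritic cells and B cells, made up 1% or more of UMIs in 33.9% (21.8 to 47.8) and 33.3% (19.6 to 49.5) of the cells with 2 or 3 CD3 UMIs. In the cells with 10 or more CD3 UMIs that share was 2.38% (0.290 to 8.34) and 5.17% (1.08 to 14.4). Tyrobp, a signaling adaptor of myeloid and NK cells, exceeded 5 UMIs in 20 and 17 of the low-CD3 cells and in 7 and 6 of the high-CD3 cells. The low-CD3 cells held 23.2% and 28.9% of all UMIs of the cycling T cells, so values are repeated below for cells with at least 4 CD3 UMIs (132 and 86 cells). Doublets were not removed, since no step for them is given in the sources used here.

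**Figure D1:**
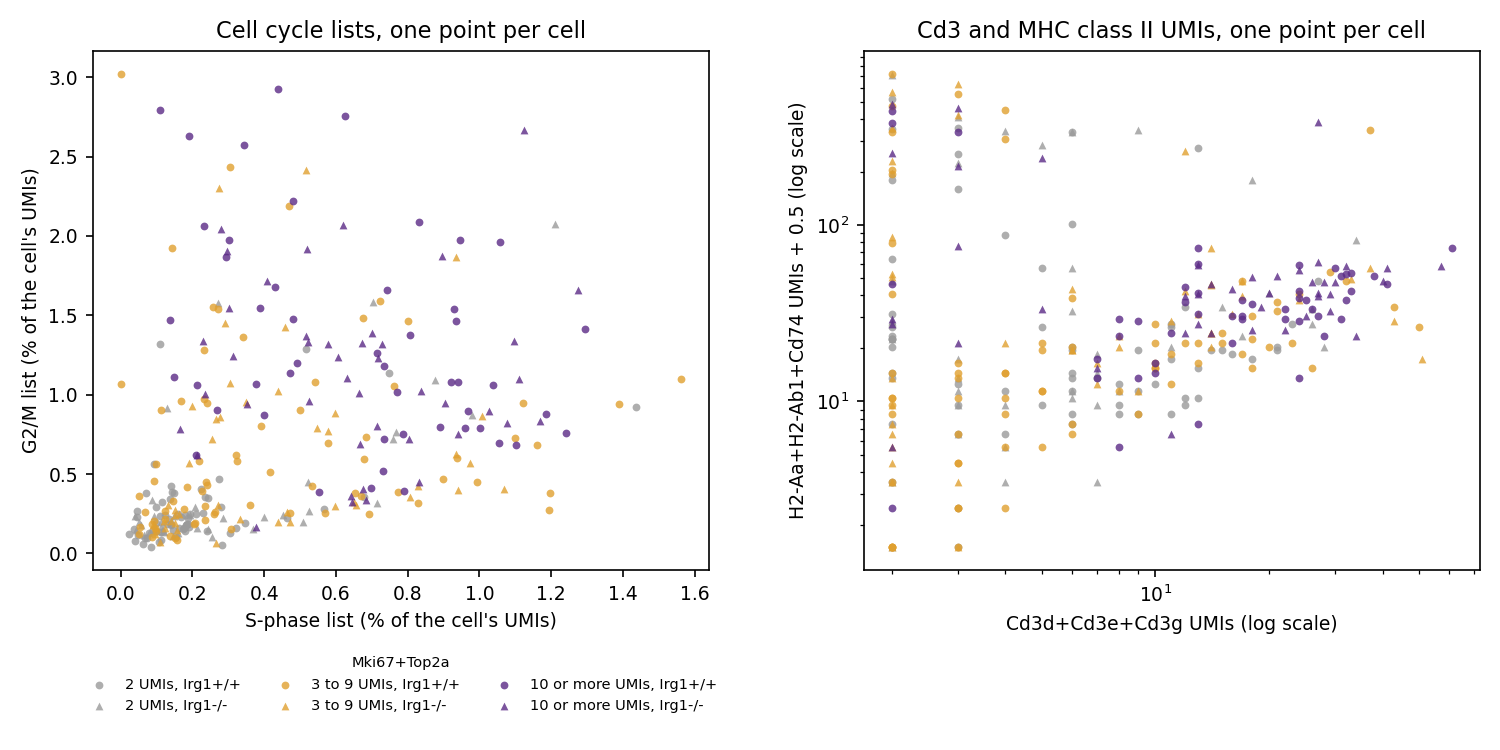
Left, each cycling T cell by its share of UMIs in the S-phase list (horizontal) and the G2/M list (vertical), in percent, with color for its Mki67 and Top2a UMIs and shape for the library. Right, CD3 UMIs (horizontal) against MHC class II UMIs plus 0.5 (vertical), both on log scales. Cells with 2 Mki67 and Top2a UMIs lie mostly low on both cell-cycle lists, and 15 of 21 Irg1+/+ and 13 of 21 Irg1-/- cells above 100 MHC class II UMIs have 2 or 3 CD3 UMIs.

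Many cells stood at the edges of the rule. Among T cells of the gate, 198 and 108 had 1 UMI of Mki67 and Top2a, just outside, and 64 and 40 had 2, just inside, while 76 and 64 had 5 or more. With the other limits met, 84 and 78 cells had 1 CD3 UMI and 36 and 27 had 2, 12 and 12 cells had 1 Foxp3 UMI, and 4 and 1 cells were over the mitochondrial limit. The complement limit removed 446 Irg1+/+ and 260 Irg1-/- cells that met every other condition, of which 44 and 27 had 6 UMIs and stood next to 29 and 28 cells with 5. These cells were deep, with medians of 19035.5 and 17873.5 UMIs, and a fixed UMI limit bears more on deep cells. Of them, 256 and 169 had complement UMIs under 0.1% of their total, with median CD3 UMIs of 21 and 26, whereas the other 190 and 91 had medians of 4 and 3. Counts of cycling T cells and of their deepest members thus depend on this limit.

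The share of cycling cells among T cells differed little between the libraries. It was 18.1% (188 of 1039, 15.8 to 20.6) in Irg1+/+ and 19.1% (128 of 669, 16.2 to 22.3) in Irg1-/- cells, a difference of 1.04 percentage points with an interval from -2.69 to 4.90. T cells of the gate were 16.5% and 11.5% of kept cells, so the cycling T cells were 2.99% (2.58 to 3.44) of the Irg1+/+ and 2.21% (1.85 to 2.62) of the Irg1-/- library. After each cell was thinned to 2000 UMIs and gated anew, 24.0% (21.2 to 26.9) and 28.4% (24.5 to 32.4) of T cells were cycling. This set leaves out shallower cells and takes in deep cells which the complement limit had removed. It held 218 and 148 cycling T cells, so it differs from the rule as given in its cells as well as in depth.

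A larger difference appeared when more CD3 UMIs were required. With at least 4 CD3 UMIs, 22.2% (18.9 to 25.7) and 26.6% (21.9 to 31.8) were cycling, and with at least 10, 36.8% of 228 Irg1+/+ and 59.2% of 98 Irg1-/- cells, 22.3 points apart (10.5 to 33.3). With at least 10 CD3 UMIs and complement UMIs under 0.1% of the total in place of the fixed limit, the shares were 62.7% of 410 and 78.4% of 232 cells, 15.8 points apart (8.45 to 22.5). Both cutoffs were chosen after the data had been seen, they also select for depth, and their intervals cover counting error only. With the complement limit alone set as a share of UMIs, 33.3% and 34.5% were cycling.

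CD8+ cells accounted for most cycling T cells in both libraries under the rule as given. A CD8 cell here had a UMI of Cd8a or Cd8b1, the chains of the coreceptor for MHC class I (both on chromosome 6), and none of Cd4, the coreceptor for MHC class II, and a CD4 cell the reverse. CD8 cells were 61.2% (115 of 188, 53.8 to 68.2) of Irg1+/+ and 58.6% (75 of 128, 49.6 to 67.2) of Irg1-/- cycling T cells, a difference of -2.58 points (-13.5 to 8.26). At a limit of 1 Mki67 and Top2a UMI the Irg1-/- share was 46.2% (39.7 to 52.8), and with no complement UMI allowed, which left 21 and 15 cycling cells, both shares were 33.3%. CD4 cells were 16% (11 to 22) and 9.38% (4.94 to 15.8), cells with both 8.51% and 6.25%, and cells with neither 14.4% (9.68 to 20.2) and 25.8% (18.5 to 34.3). Among non-cycling T cells the CD8 share was lower, 41.2% (37.4 to 45.1) and 31.2% (26.8 to 35.8), and the share with neither was 37.5% and 45.5%.

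The lower CD8 share of non-cycling cells was also present after thinning, which changed both the depth and the cells that passed the gate. Thinned to 2000 UMIs and gated anew, CD8 cells were 71.1% and 73.6% of cycling and 45.8% and 37.2% of non-cycling T cells, and cells with neither 12.8% and 14.2% of cycling ones. With at least 10 CD3 UMIs, CD8 cells were 77.4% and 87.9% of cycling T cells, 10.6 points apart with an interval from -2.68 to 22.3. As a background of such calls, a Cd8a or Cd8b1 UMI was also found in 24.3% and 5.13% of B cells and 38.1% and 28.9% of C1q macrophages, against 69.7% and 64.8% of cycling T cells. Thinned, these shares were 19% and 0% (4 of 21 and 0 of 26 B cells), 12.2% and 7.49%, and 62.6% and 55.9%. A Cd4 UMI was found in 24.5% and 15.6% of cycling T cells, 16.2% and 5.13% of B cells and 12.3% and 12.6% of macrophages, which leaves CD4 calls closer to that background than CD8 calls.

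Within the classes, the order of the libraries differed. Of CD8 cells 23.9% (115 of 481, 20.2 to 28.0) were cycling in the Irg1+/+ and 30.7% (75 of 244, 25 to 36.9) in the Irg1-/- library, and thinned 31.4% (27.4 to 35.7) and 42.6% (36.4 to 48.9). Of CD4 cells 20.4% (30 of 147, 14.2 to 27.8) and 10.0% (12 of 120, 5.27 to 16.8) were cycling, and thinned 20.3% (13.6 to 28.5) and 12% (6.36 to 20.02). The intervals of the libraries overlapped in both classes at the deposited depth, and after thinning in CD4 but not in CD8 cells. The thinned CD8 values are not for the same cells, since 155 and 109 cycling CD8 cells passed then, against 115 and 75 before. Among T cells with Foxp3, which encodes the defining factor of regulatory T cells and which the rule leaves out, 28.6% (84 of 294) and 31.7% (39 of 123) met the Mki67 and Top2a limit, and thinned 23.4% and 14.3%. For scale, 31 of 155 and 43 of 270 C1q macrophages met it, and thinned 9.82% and 8.80%.

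**Figure D2:**
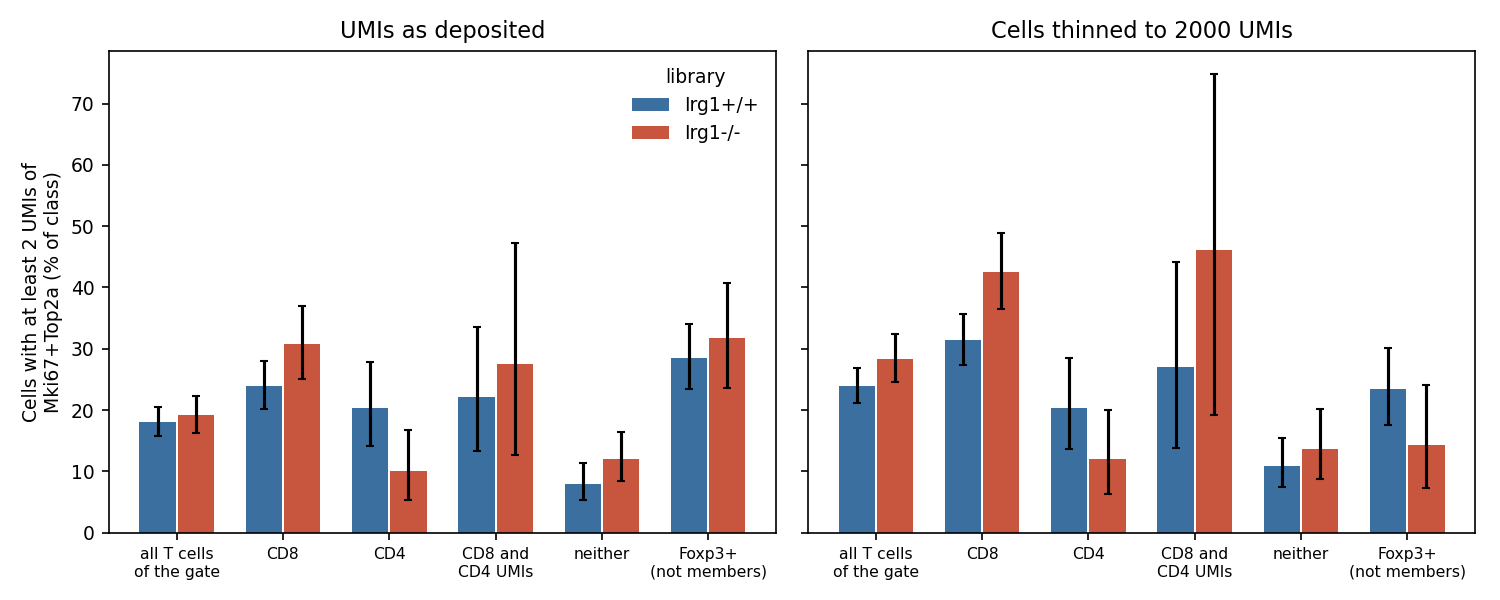
Share of cells with at least 2 Mki67 and Top2a UMIs (vertical, percent) in both libraries, with exact 95% intervals for counting error. The sets are T cells of the gate, their CD8 and CD4 classes, cells with both or neither, and T cells with Foxp3. A second panel shows the thinned cells. At the deposited depth, CD8 cells were at 23.9% and 30.7% and CD4 cells at 20.4% and 10.0%.

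**Figure D3:**
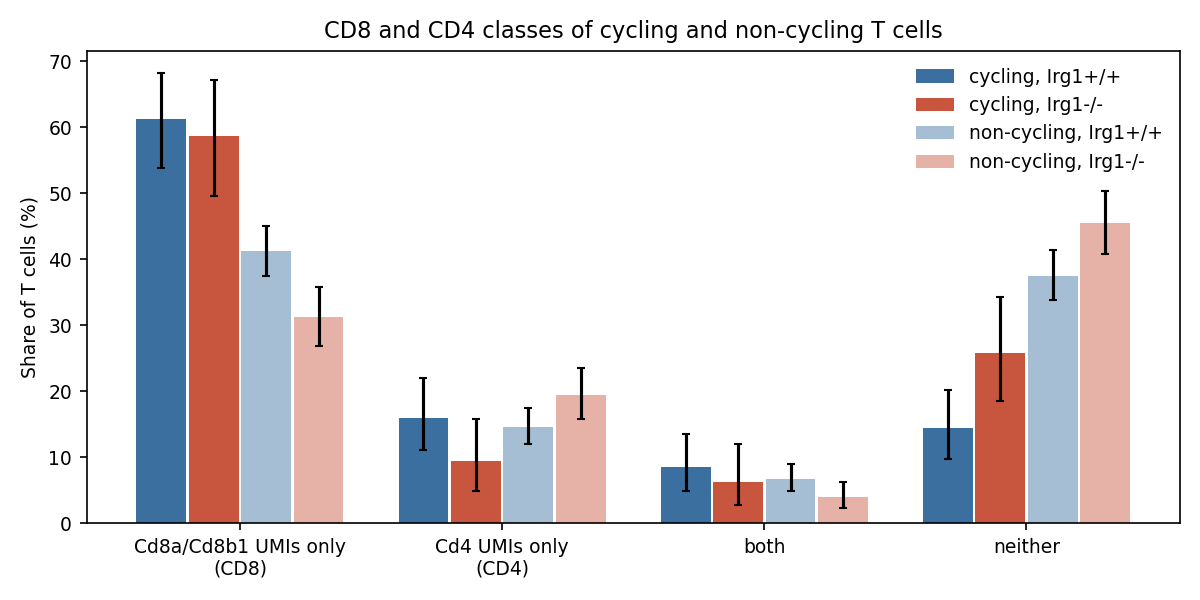
Makeup of cycling and non-cycling T cells in each library (vertical, percent of cells) by UMIs of Cd8a or Cd8b1 and of Cd4. CD8 cells made up 61.2% and 58.6% of cycling and 41.2% and 31.2% of non-cycling T cells.

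Most measured S-phase and G2/M genes were at least 2-fold higher in cycling than in non-cycling T cells. This contrast of cycling with non-cycling T cells is the one the rule drew on, so it is described and not tested. Of 6650 genes with at least 50 UMIs, 168 (2.53%) were at least 2-fold higher and 138 (2.08%) at least 2-fold lower in cycling cells of both libraries. Of 33 measured genes of the S-phase list 24 were at least 2-fold higher in both, with median log2 ratios of 1.71 (Irg1+/+) and 1.99 (Irg1-/-), and of 38 measured G2/M genes 30 were, with medians of 2.62 and 2.56. The medians over all measured genes were -0.01 and -0.03. Summed, the S-phase list had 4376 and 4461 CPM in cycling and 1523 and 1443 CPM in non-cycling cells, and the G2/M list 7260.4 and 6560.4 against 2118 and 1892 CPM.

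The genes with the largest ratios act in mitosis and replication. Cenpf, a kinetochore protein, had 119 and 98.3 CPM in cycling and 6.02 and 3.78 CPM in non-cycling cells, log2 ratios of 4.26 and 4.59. Nusap1, which organizes spindle microtubules, had 157 and 144 against 7.23 and 7.57 CPM (4.40 and 4.20). Ccna2, the S-phase and G2 cyclin, stood at 214 and 223 against 17.3 and 17.7 CPM (3.62 and 3.63). Rrm2, the small subunit of ribonucleotide reductase, had 245 and 293 against 28.5 and 27.1 CPM (3.09 and 3.42). Stmn1, a microtubule destabilizer that is high in dividing lymphocytes, had 379 and 383 against 58.6 and 42.9 CPM (2.69 and 3.15). In contrast Pcna, the replication clamp, had 306 and 308 CPM in non-cycling cells already, against 549 and 638 CPM (0.84 and 1.05).

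The promoters of both lists differed in the motifs they held. Known elements of cell-cycle promoters are the CCAAT box bound by NF-Y, the CHR element (TTTGAA) of G2/M genes and E2F sites of S-phase genes (here GCGGGAA), and each was searched on both strands in the 250 bases before RefSeq gene starts (GRCm38.p6). CCAAT was in 67.6% of 34 S-phase promoters (31 of 43 genes matched), 74% of 50 G2/M promoters (45 of 52 genes matched) and 33.8% of all 32851 promoters. TTTGAA was in 17.6%, 38% and 16%, and GCGGGAA in 32.4%, 2% and 3.82%. TTTGAA and CCAAT stood together in 11.8%, 32% and 5.55%. A match is a run of letters and not evidence of binding. To show how the elements lie, the promoters of Mcm5 and Mcm6, subunits of the replicative helicase, of Hmgb2, a chromatin protein of the G2/M list, and of Cbx5, heterochromatin protein 1 alpha, are printed with the motifs in capitals (CCAAT, or ATTGG where it lies on the opposite strand, and TTTGAA, or TTCAAA on the opposite strand). They come from the genes of each list with the most UMIs in cycling T cells that had a motif and whose window did not reach into the gene as GENCODE M21 draws it.
Mcm5 (chr8:75109259-75109508, plus strand): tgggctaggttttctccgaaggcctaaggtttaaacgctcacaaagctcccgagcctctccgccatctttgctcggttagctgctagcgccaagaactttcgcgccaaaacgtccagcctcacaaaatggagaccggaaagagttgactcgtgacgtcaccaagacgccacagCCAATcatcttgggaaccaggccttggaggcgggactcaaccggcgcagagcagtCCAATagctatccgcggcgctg
Mcm6 (chr1:128359706-128359955, minus strand): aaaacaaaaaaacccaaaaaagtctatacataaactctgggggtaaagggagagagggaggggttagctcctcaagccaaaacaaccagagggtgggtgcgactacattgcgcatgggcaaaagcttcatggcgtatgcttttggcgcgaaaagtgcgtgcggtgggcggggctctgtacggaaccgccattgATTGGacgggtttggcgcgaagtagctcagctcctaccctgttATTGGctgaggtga
Hmgb2 (chr8:57511593-57511842, plus strand): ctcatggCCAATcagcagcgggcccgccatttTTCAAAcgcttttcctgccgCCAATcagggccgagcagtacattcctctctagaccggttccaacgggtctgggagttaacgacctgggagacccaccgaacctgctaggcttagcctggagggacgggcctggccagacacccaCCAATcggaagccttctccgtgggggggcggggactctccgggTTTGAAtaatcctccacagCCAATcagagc
Cbx5 (chr15:103239853-103240102, minus strand): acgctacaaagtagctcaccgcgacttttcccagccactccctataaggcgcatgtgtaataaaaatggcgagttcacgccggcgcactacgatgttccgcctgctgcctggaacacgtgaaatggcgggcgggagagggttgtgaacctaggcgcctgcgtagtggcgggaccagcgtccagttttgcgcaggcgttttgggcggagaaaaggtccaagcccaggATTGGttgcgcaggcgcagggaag
Hmgb2 held 4 CCAAT boxes, the nearest starting 11 bases before the start, and a TTTGAA starting 30 bases before it. Mcm5, with CCAAT 77 and 22 bases before its start, had 264 and 254 CPM in cycling and 67.1 and 60.5 CPM in non-cycling T cells. Mcm6 had 213 and 212 against 65.1 and 53.0 CPM, Hmgb2 718 and 724 against 200 and 173 CPM, and Cbx5 170.2 and 252 against 57.8 and 42.9 CPM.

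Cells with few Mki67 and Top2a UMIs looked less like cycling cells by the other genes. The S-phase list (which does not hold the genes of the rule) took a median of 0.731% and 0.664% of UMIs in the 49 and 43 cells with 10 or more Mki67 and Top2a UMIs, 0.264% and 0.304% in those with 3 to 9, and 0.152% and 0.185% in those with 2. Non-cycling cells had 0.139% and 0.135%. The G2/M list had medians of 1.14% and 1.10%, 0.449% and 0.354%, and 0.205% and 0.212% in these classes and 0.209% and 0.182% in non-cycling cells, so that Irg1+/+ cells with 2 UMIs were not above non-cycling ones. The medians of the 64 and 40 cells with 2 UMIs lay within the quartiles of non-cycling cells on both lists, but the upper S-phase quartile of the Irg1-/- cells with 2 UMIs was 0.466%, against 0.224% in non-cycling cells. More G2/M than S-phase UMIs were found in 122 of 188 and 82 of 128 cycling cells and in 419 of 653 and 255 of 433 non-cycling cells, a ratio that depends on the lists and not a count of cells in each phase.

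The other proliferation genes showed an uneven picture. Of 16 measured genes of nucleotide and one-carbon synthesis, 4 were at least 2-fold higher in both libraries, with medians of 0.67 and 0.77. Dut, which keeps uracil out of DNA, had 180.1 and 212 against 44.2 and 35.3 CPM (2.02 and 2.58), and Shmt2, which feeds the one-carbon pool in mitochondria, 85.4 and 110 against 53.0 and 73.1 CPM. Of 16 measured cyclins, cyclin-dependent kinases and inhibitors, 3 were at least 2-fold higher, with medians of 0.01 and -0.05. Ccnd2, a cyclin of G1 entry, was lower in cycling cells at 207 and 318 against 382 and 392 CPM, as was Cdkn1b, the inhibitor p27, at 251 and 205 against 340.2 and 360 CPM. Replication-dependent histones, most of whose transcripts lack a poly(A) tail, summed to 122 and 134 against 60.7 and 56.1 CPM.

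Among cytotoxic genes, Gzmb and Prf1 were at least 2-fold higher in cycling T cells of both libraries. Gzmb, the granzyme that cleaves caspase substrates in target cells, had 2345 and 1963 CPM in cycling and 878 and 836 CPM in non-cycling cells (log2 ratios 1.42 and 1.23). It had a UMI in 71.8% and 85.2% of cycling cells, but thinned to 2000 UMIs in 62.0% and 63.1%, against 14.3% and 19.2% of B cells and 18.9% and 22.8% of C1q macrophages. Prf1, the pore protein perforin, had 241 and 237 against 98.8 and 75 CPM (1.29 and 1.66). Of 18 measured effector genes 4 were at least 2-fold higher in both libraries (Gzmb, Gzme, Gzmf and Prf1) and none lower, and in CD8 cells 2 were higher and 1 lower. For Gzme, 82.8% and 71.1% of the UMIs in cycling cells came from 3 cells of each library, and for Gzmf 59.2% and 71.1%. The list summed to 12147 and 10312 against 11623 and 9620.0 CPM. Ccl5, a chemokine of memory and effector T cells, was lower in cycling cells at 2123 and 1784 against 3380.4 and 2337 CPM. Ifng, which encodes interferon gamma, had 165 and 141 against 245 and 144 CPM.

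A few inhibitory and activation receptors were higher in cycling cells. Pdcd1, which encodes PD-1 (chr1:94038305-94052553, minus strand), had 272 and 380 against 150.2 and 117 CPM (0.86 and 1.69), and its thinned shares of cells were 34.4% and 42.3%, against 0% of B cells (0 of 21 and 0 of 26 cells) and 2.70% and 3% of macrophages. Havcr2, which encodes TIM-3, had 258 and 230.0 against 112 and 113 CPM, and Lag3 63.2 and 63.2 against 30.9 and 23.3 CPM. Of 11 measured inhibitory receptors these last 2 passed 2-fold in both libraries, with list medians of 0.28 and 0.48, and 1 of 10 did with at least 4 CD3 UMIs and also in CD8 cells. Tnfrsf9, the costimulatory receptor 4-1BB, was the 1 of 8 costimulatory genes to do so, at 545 and 539 against 251 and 233 CPM. With at least 4 CD3 UMIs none of the 8 passed 2-fold, with medians of -0.08 and -0.066. Tox, a transcription factor of persistently stimulated T cells, had 163 and 137 against 71.1 and 44.1 CPM, and Zeb2, a factor of terminal effectors and myeloid cells, 102 and 109 against 212 and 277 CPM. They were the only 2 of 18 measured transcription factors past 2-fold in both libraries, against 0 of 15 with at least 4 CD3 UMIs and 0 of 16 in CD8 cells.

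Genes of naive and memory T cells lay on the other side. Of 12 measured, 5 were at least 2-fold lower in cycling cells of both libraries and none higher, with medians of -1.05 and -1.39. Il7r, the receptor for the survival cytokine IL-7 (chr15:9505788-9530176, minus strand), had 292 and 264 against 952 and 965 CPM (-1.70 and -1.87). Tcf7, which encodes TCF-1, had 122 and 73.5 against 266 and 241 CPM (-1.12 and -1.70). S1pr1, which guides exit from tissue, had 64.1 and 54.9 against 153 and 163 CPM, and Id3 12.3 and 10.4 against 34.1 and 29.0 CPM. With at least 4 CD3 UMIs, 8 of 11 were at least 2-fold lower (medians -1.31 and -1.80), where 2.52% of all 4769 measured genes were at least 2-fold higher and 1.59% at least 2-fold lower, and within CD8 cells 6 of 9, where 2.48% of all 4318 measured genes were at least 2-fold higher and 1.78% at least 2-fold lower.

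These state genes were read again in the T cells with at least 10 CD3 UMIs and complement UMIs under 0.1% of the total, a set chosen after the data had been seen. It holds 410 Irg1+/+ and 232 Irg1-/- T cells, of which 257 and 182 were cycling. The non-cycling sums thus rest on fewer cells, above all in the Irg1-/- library, and the ratios are given without intervals. The excess of effector and checkpoint genes was smaller or gone there. Gzmb had 3143 and 3855 CPM in cycling against 2349.7 and 3794 CPM in non-cycling cells (0.42 and 0.02), Prf1 418 and 482 against 348 and 463 CPM, and Pdcd1 373 and 455 against 302 and 382 CPM (0.30 and 0.24). Lag3 was lower in cycling cells, at 70.9 and 90.5 against 109 and 118 CPM, and Havcr2 and Tnfrsf9 stood at 0.49 and -0.07 and at 0.49 and -0.30. Among memory genes, the deficit was larger for Il7r, at 126 and 106 against 555 and 496 CPM (-2.15 and -2.23) and for Tcf7, at 59.6 and 23.9 against 206 and 113 CPM (-1.79 and -2.27). Ccl5 was at 1039.8 and 926 against 4225 and 2251 CPM (-2.02 and -1.28). The S-phase and G2/M medians were 1.58 and 1.89 and 2.64 and 2.60. Gzmb differed between the libraries by 0.29 in these cycling cells and by -0.26 in all cycling T cells.

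**Figure D4:**
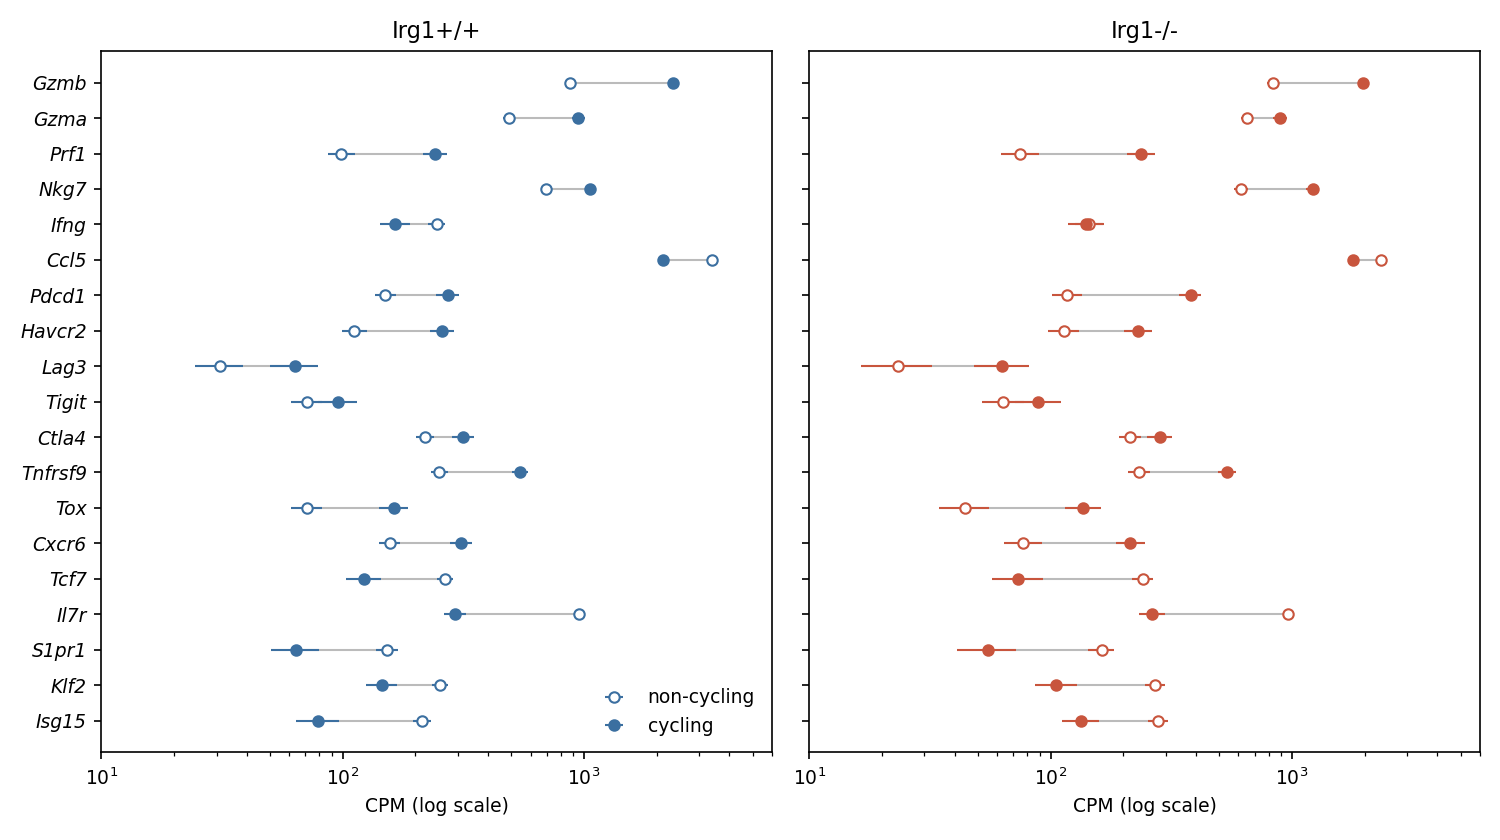
Summed level of effector, checkpoint, memory and interferon genes in cycling (filled) and non-cycling (open) T cells, in CPM on a log axis, one panel per library, with exact 95% Poisson intervals for counting error. Gzmb, Pdcd1, Havcr2, Tnfrsf9 and Tox lie to the right, and Il7r, Tcf7 and Isg15 to the left, in cycling cells of both panels.

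Signaling and homing genes differed less. None of 14 measured cytokine receptors, 13 chemokine receptors and adhesion genes or 14 genes of T cell receptor signaling passed 2-fold in both libraries, with medians between -0.23 and -0.04. Cxcr6, a receptor of tissue-resident cells, came near at 310.5 and 214 against 157 and 76.9 CPM (0.98 and 1.48). Glycolysis genes summed to 7138 and 7180.5 against 5965 and 5622 CPM and tricarboxylic acid cycle genes to 1703 and 1686 against 1412 and 1373 CPM. None of 15 glycolysis genes passed 2-fold, and 1 of 15 cycle genes was lower. Gapdh, the glycolytic dehydrogenase, had 1800.5 and 1826 against 1319 and 1238 CPM.

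Some interferon-stimulated genes were lower in cycling cells. Of 24 measured genes of the type I interferon response, 8 were at least 2-fold lower in both libraries, with medians of -1.05 and -0.85 and sums of 1950.0 and 2383 against 3799 and 4397 CPM. Isg15, a ubiquitin-like antiviral protein, had 78.9 and 134 against 213 and 279 CPM, and Irf7, a transcription factor of the interferon response, 55.9 and 84.9 against 124 and 208 CPM. With at least 4 CD3 UMIs none of 19 passed 2-fold and the medians were -0.86 and -0.73, whereas in CD8 cells 4 of 19 were lower. The type II list had 2 of 20 lower, with medians of -0.81 and -0.70, 3 of 18 with at least 4 CD3 UMIs and 5 of 18 in CD8 cells. Macrophage markers moved the same way, from 5943 and 6406 CPM in non-cycling to 3028 and 3691 CPM in cycling cells (Lyz2 the most abundant), and from 3086 and 3271 to 2597 and 3029 CPM with at least 4 CD3 UMIs. Their part in the interferon values was not tested.

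Genes of gamma delta T cells, an innate-like lineage, were low in cycling cells. Of 5 measured gamma delta T cell genes 4 were at least 2-fold lower in both libraries, with sums of 108 and 174 against 417 and 549.8 CPM. Trdc, the constant gene of the delta chain, had 25.5 and 50.7 against 125 and 230.1 CPM, and Trgc1, of the gamma chain, 15.6 and 11.4 against 82.3 and 103 CPM. In CD8 cells 1 gene of the list was measured, at -1.06 and 1.27, and with at least 10 CD3 UMIs and complement UMIs under 0.1% the Irg1-/- median was 1.19. Killer lectin-like receptors, shared with natural killer cells, summed to 1244 and 1538 against 1108 and 1325 CPM, with 2 of 11 lower, among them Klra7 at 26.3 and 37.3 against 94.8 and 101 CPM. Klrc1, which encodes NKG2A, was higher at 287 and 303 against 157 and 148 CPM, with log2 ratios of 0.87 and 1.03.

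Outside the lists, the genes that best set cycling cells apart again included replication and mitosis genes (Spc24, Smc2, Kif15, Lig1, Mcm3 and Ncapg2), and also some with other roles. Rgs16, which dampens G-protein signaling and is induced on T cell activation, had 408 and 386 against 116 and 76.9 CPM (1.82 and 2.32). Nrgn, a calmodulin-binding protein best known from neurons, had 342 and 333 against 92.4 and 73.1 CPM (1.89 and 2.18). The lowest held gamma delta genes together with genes known from myeloid cells (among them Vcan, F13a1, C3 and Inhba). With at least 10 CD3 UMIs, Vcan stood at 0.25 and 0.57 in place of -2.07 and -1.95, and F13a1 at 0.20 in the Irg1+/+ library.

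Markers of other cells gave the background of these sums. Lyz2, the macrophage and granulocyte lysozyme, had a UMI in 97.9% and 95.3% of cycling T cells and in 94.6% and 79.5% of B cells. Natural killer markers summed to 1799 and 1940.1 CPM (Gzma, which T cells also make, the most abundant), dendritic cell markers to 7196 and 8296.5 CPM (H2-Ab1, which B cells and macrophages share) and B cell markers to 310 and 495 CPM (Igkc, with Cd79a and Pax5 at 0 UMIs). Melanocyte markers summed to 310.5 and 114 CPM (Gpnmb, which macrophages also make), neutrophil markers to 34.5 and 71.4 CPM (S100a9, with Ly6g at 0), and all 5 erythrocyte markers were at 0 UMIs. Of regulatory T cell markers, Foxp3 was at 0 by the rule and the list summed to 1049.8 and 991 CPM (Ctla4 the most abundant). T cell markers summed to 6634 and 6352 CPM (Trbc2) and proliferation markers to 4879 and 4820.2 CPM (Tubb5). Xist, from the silenced X chromosome of females, had 343 and 347 CPM, and the other 5 sex-linked genes were at 0.

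Between the libraries, few genes of the cycling T cells differed by 2-fold. Of 6309 genes with at least 50 UMIs over both, 41 (0.65%) were at least 2-fold higher and 50 (0.793%) at least 2-fold lower in the library labelled Irg1-/-, and the median log2 ratio was -0.03. No measured gene of the S-phase or G2/M list passed 2-fold, with medians of -0.02 over 38 and -0.18 over 47 genes. The same held for inhibitory receptors (median 0.04 over 11), costimulatory receptors (-0.32 over 8), memory genes (-0.23 over 10), transcription factors (-0.02 over 18) and cytokine receptors (0.00 over 14), and for T cell receptor signaling (-0.24 over 14), glycolysis (-0.07 over 15) and the tricarboxylic acid cycle (-0.01 over 16).

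Pdcd1 and Tcf7 were apart in the libraries by less than 2-fold. The Irg1-/- over Irg1+/+ log2 ratio of Pdcd1 was 0.48 (0.26 to 0.70) in cycling and -0.36 in non-cycling T cells, and that of Tcf7 was -0.73 (-1.16 to -0.32) in cycling and -0.14 in non-cycling T cells. No 3 cells decided these sums, since the top 3 held 10.9% and 13.6% of Pdcd1 and 21.5% and 28.2% of Tcf7 UMIs. With at least 4 CD3 UMIs the ratios were 0.62 and -0.997. Trbc2, a constant gene of the beta chain, had 1335 and 1869 CPM (0.49 in cycling, -0.27 in non-cycling cells), whereas Trac had 1307 and 1034 CPM (-0.34). Ly6c2, which memory CD8+ T cells and monocytes share, had 876 and 1475 CPM (0.75, and 0.43 in non-cycling cells). It was also higher over all kept cells of the Irg1-/- library, at 779 and 1664 CPM.

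Cd4 was among the 10 lowest genes by the naming rule. Cd4 had 143 and 54.9 CPM in cycling T cells (-1.37, -1.85 to -0.93) and 162 and 181 CPM in non-cycling T cells (0.16). Cxcr3, a chemokine receptor of type 1 T cells on the X chromosome (chrX:101731535-101734269, minus strand), had 84.6 and 38.3 CPM (-1.13, -1.73 to -0.59), with -0.24 in non-cycling and -1.11 in CD3-high cycling cells. Dgka, a diacylglycerol kinase that restrains T cell receptor signaling, had 95.3 and 46.6 CPM (-1.02). The top 3 cells held 38.5% and 47.2% of Cd4 UMIs, 17.5% and 24.3% of Cxcr3 UMIs and 11.2% and 17.8% of Dgka UMIs. The ratios of Cxcr3 and Dgka turned to 0.33 and 0.19 in cells thinned to 2000 UMIs and gated anew, a set that also takes in deep cells which the complement limit had removed.

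Other low genes rested on a few cells. Gzmd had 272 and 107 CPM, but 3 cells held 87.6% of the Irg1+/+ UMIs (220 UMIs in a single cell), and with at least 4 CD3 UMIs the log2 ratio was 0.20 in place of -1.35. Gzmf, at 411 and 133 CPM (-1.63), had 59.2% and 71.1% of UMIs in 3 cells. Gzmc had 395 and 229 CPM (-0.79), with 46.8% and 53.4% of UMIs in 3 cells, and 431 and 157 CPM with at least 4 CD3 UMIs. These granzymes lie next to Gzmb on chromosome 14 (Gzme to Gzmb, chr14:56117626-56262260), and near-identical members may share reads. Of 18 effector genes Gzmd and Gzmf passed 2-fold, with a list median of -0.24, and with at least 4 CD3 UMIs 2 were at least 2-fold lower and 1 higher. Gzme stood at 53.5 and 108 CPM there. Spp1, or osteopontin, had 357 and 69.4 CPM (-2.36) with 62.1% of Irg1+/+ UMIs in 3 cells, and Ccl22, a chemokine of mature dendritic cells, 296 and 64.2 CPM (-2.19) with 62.8%. Both were also lower over all kept cells of the Irg1-/- library, at 558 and 222 CPM for Spp1 and 333 and 195 CPM for Ccl22.

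Several differences were found in the whole libraries and not in T cells alone. Tpm3-rs7, a tropomyosin-related sequence on chromosome 14 (chr14:113314608-113316754, plus strand), had 9.86 and 144 CPM in cycling T cells (3.81, 3.02 to 4.85), 9.24 and 121 CPM in non-cycling T cells and 11.8 and 136 CPM over all kept cells, and near-identical copies may share its reads. Gm47015, a long noncoding RNA, had 42.7 and 155 CPM (1.85) and 10.5 and 75.9 CPM over all kept cells. Igha, the constant gene of IgA antibodies, had 27.9 and 110 CPM (1.40 to 2.58 for the log2 ratio) and 74.3 and 299.5 CPM over all kept cells. Dct and Gpnmb, melanocyte genes, had 73.9 and 20.7 CPM and 131 and 44.5 CPM in cycling T cells, and all 4 measured melanocyte markers were at least 2-fold lower in the Irg1-/- library, with a median of -1.59. Ccl8, a macrophage chemokine, had 72.3 and 29.0 CPM, and 299 and 185 CPM over all kept cells.

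A few stress genes were higher in the Irg1-/- library. Hspa1a, the inducible chaperone HSP70, had 116 and 295 CPM (1.35, 1.05 to 1.65) and a ratio of 1.34 in non-cycling cells, and Atf3, a stress-induced transcription factor, had 110.1 and 233 CPM (1.08). Within CD8 cells their ratios were 0.0025 and 0.61, and 0.07 and 1.48 in thinned cells. Of 15 dissociation stress genes 3 passed 2-fold, with a median of 0.37 in cycling and 0.50 in non-cycling cells, and sums of 7370.5 and 8818 CPM. In CD8 cells none of the 15 passed 2-fold, 8 were above 0 and the median was 0.0025, where 0.623% of all 4977 measured genes were at least 2-fold higher, 1.77% at least 2-fold lower and 48.4% above 0. Of 21 measured type I interferon genes 17 were above 0, as were 44.7% of all measured genes, and none passed 2-fold, with medians of 0.33 and, in non-cycling cells, 0.21. Isg15 had a ratio of 0.76 (0.37 to 1.16). Cxcl10, a chemokine of the type II list, had 66.5 and 159 CPM (1.26), with 60.4% of Irg1-/- UMIs in 3 cells. Over the type II list the median was 0.18, with 1 of 19 genes past 2-fold. The libraries also differed in macrophage markers (median 0.31, -0.42 for C1qa), whose part in these values was not tested. Killer lectin-like receptors had 2 of 10 genes past 2-fold and a median of 0.40, and with at least 4 CD3 UMIs 1 of 5 and a median of 0.18. Cells with at least 2 UMIs of natural killer cell markers were 26 of 188 and 36 of 128 cycling T cells, and 1 of 6 measured markers passed 2-fold, with a median of 0.13. Their part in the receptor values was not tested.

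Of the remaining named genes, Ly6i had 34.5 and 97.3 CPM (1.49), Sema7a, a membrane semaphorin, 42.7 and 89.0 CPM (1.05), Retnla, a gene of alternatively activated macrophages, 26.3 and 73.5 CPM (1.47), and Clec10a, a lectin of macrophages and dendritic cells, 33.7 and 70.4 CPM (1.06). For Retnla and Clec10a 67.6% and 64.7% of the Irg1-/- UMIs were in 3 cells, and with at least 4 CD3 UMIs the ratios were 0.09 and -0.58. Sema7a was at 0.22 there, and Ly6i at -0.24 in thinned cells. In cells with at least 4 CD3 UMIs, 29 of 5360 genes (0.541%) were at least 2-fold higher and 45 (0.84%) at least 2-fold lower in the Irg1-/- library.

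**Figure D5:**
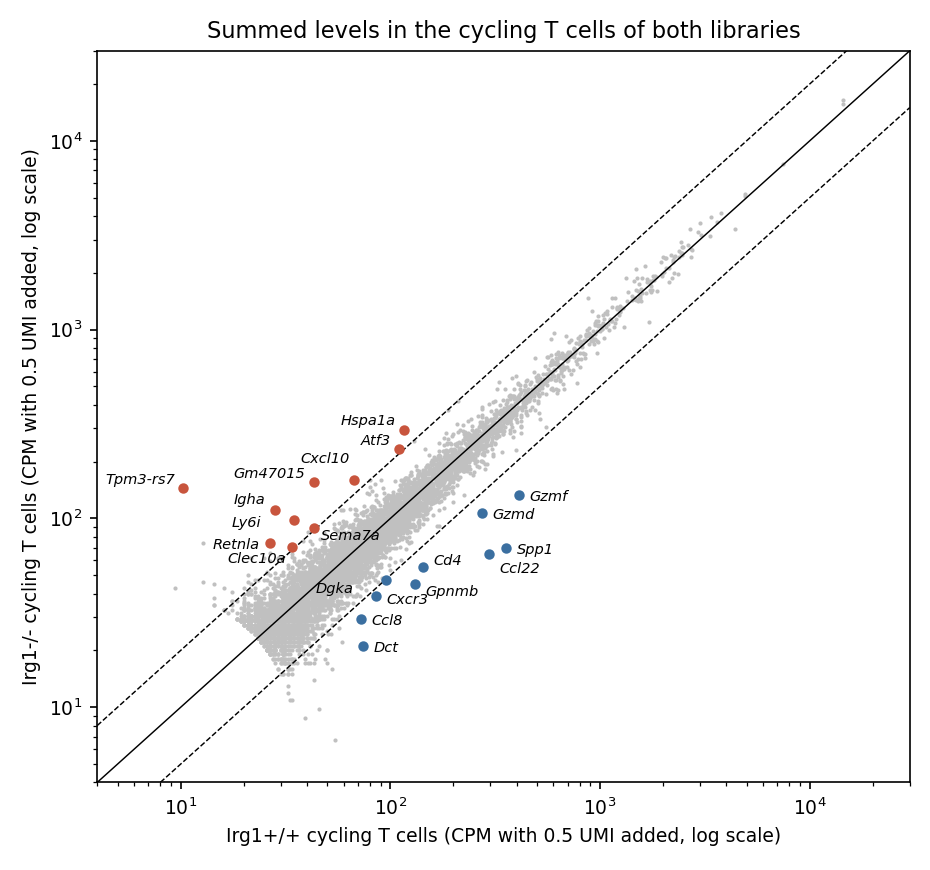
Summed level of each measured gene in cycling T cells, Irg1+/+ (horizontal) against Irg1-/- (vertical), in CPM with 0.5 UMI added, on log axes. The solid line marks equal levels and the dashed lines 2-fold, and the named genes lie beyond the dashed lines, among them Tpm3-rs7 at 9.86 and 144 CPM and Cd4 at 143 and 54.9 CPM.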

How the data were processed

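The data were 2 libraries of CD45+ cells from B16-F10 tumors, captured with BD Rhapsody, 1 per genotype and each from 3 pooled mice. The authors deposited raw UMI counts for every gene in every cell. They had trimmed reads with fastp, found cell barcodes with UMI-tools and mapped with STAR (mouse, Ensembl release 100). The submitters' processing notes also name CASAVA 1.8, Seurat and GRCm38. The files held 6408 and 5896 cells with 43617546 and 36432067 UMIs over 31253 genes, and 124 and 102 cells at or over 10% mitochondrial UMIs (13 genes) were dropped. Doublets were kept. With 1 library per genotype no test was possible.

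Cells were classed by UMI limits alone, without clustering. UMIs were summed per class and library and given as CPM without mitochondrial genes, with exact Poisson intervals, shares of cells with exact Clopper-Pearson intervals, differences of shares with Newcombe intervals, and log2 ratios with a pseudocount of 0.5 UMI and exact conditional intervals, all 95% and for counting error only. Ratios between libraries are Irg1-/- over Irg1+/+, and ratios of cycling over non-cycling cells were made within each library. Genes with at least 50 UMIs over both sums were measured, and 2-fold is a rule of size. Because the sum of a list follows its most abundant genes and the median its typical gene, both are given. Thinning drew 2000 UMIs per cell once with a fixed seed. The members and all gene lists were chosen with earlier results of these data known, so list counts are descriptions.

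Named genes were all members of the lists, by counts with examples, the gate genes and Acod1, the 10 highest and 10 lowest between libraries among 4229 genes with at least 100 UMIs and a UMI in at least 10% of cells of either library, and the 15 highest and 15 lowest by both libraries' cycling over non-cycling ratios among 4582 genes. A few of these are not reported here. Positions are from GENCODE M21 (GRCm38), in which 490 of 490 named identifiers were found. Promoters whose window reached into the gene as GENCODE draws it (Pcna, Rrm2, Tmpo, Cenpa, Anp32e and Ube2c) were passed over for printing. Steps were tested on simulated counts. Python 3.11.15 with numpy 2.4.6, scipy 1.17.1, pandas 2.3.3 and matplotlib 3.10.9, and R 4.3.3 with edgeR 4.0.16 (TMM factors only), were used. Alternatives were other limits for Mki67 and Top2a, CD3 and complement UMIs, depth, UMI minimum, scaling, pseudocount and CD8 cells only.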

Additional observations from a re-analysis of the deposited data

Results flagged for a closer look

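Spp1 stood on opposite sides in the libraries. Its log2 ratio of cycling over non-cycling T cells was 0.43 in the Irg1+/+ and -0.93 in the Irg1-/- library, a difference of -1.36 that was not tested, since each side is 1 library. Of the Irg1+/+ UMIs of Spp1 in cycling T cells, 62.1% came from 3 cells.

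The complement limit set aside 446 Irg1+/+ and 260 Irg1-/- cells that met every other condition of the rule and enter none of the comparisons of cycling T cells as defined. They outnumbered the 188 and 128 cells kept, and 199 and 140 of them had at least 10 CD3 UMIs.

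Beyond the mitochondrial limit, 4 Irg1+/+ cells met every other condition, against 1 Irg1-/- cell.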

How the results depend on the processing

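No paired analysis was possible because each genotype has 1 library. Of 146 recomputed shares, differences of shares and counts of genes, 78 stayed within the counting interval (shares and differences) or within 1.5 times (counts) and 68 moved. Both differences of shares between libraries had intervals that included 0 under the rule as defined, and their sign depended on its limits. The cycling share differed by -1.87 points at 1 Mki67 and Top2a UMI against 1.04 as defined, and the CD8 share by -8.74 points (-16.7 to -0.64) at 1 and 6.94 points at 4 such UMIs against -2.58. Of 2937 recomputed ratios and list medians, 2178 stayed within their range, 730 moved and 29 that were past 2-fold changed sign. The range was the counting interval for the ratio of a gene, and for a list median the quartiles over the genes of the list. Requiring over 200 genes removed no cell. The cause of these moves was not tested, beyond what the settings do to the number of cells or genes.

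Cycling shares (Irg1+/+ first) were 37.2% and 35.3% at 1 Mki67 and Top2a UMI and 9.43% and 10.5% at 4, with Irg1-/- CD8 shares of 46.2% and 74.3% and 13 and 383 genes lower in cycling cells. With at least 4 CD3 UMIs they were 22.2% and 26.6%, the Irg1-/- CD8 share 69.8% and the genes lower in cycling cells 76, and Clec10a and Gzmd turned to -0.58 and 0.20 between libraries. With no complement UMI allowed (21 and 15 cycling cells) the cycling shares were 11.7% and 10.6%, both CD8 shares 33.3%, and 9 genes were higher and 11 lower between libraries and 4 higher and 25 lower in cycling cells. Clec10a (-2.97) and Gzmf (3.37) turned between libraries, and in cycling over non-cycling cells Gzmf (-4.05), Mcm7 (-0.79), Trdc (0.60) and Vcan (0.019) in Irg1+/+ and C3 (1.38) in Irg1-/-. Leaving out cells with 1 Mki67 and Top2a UMI gave cycling shares of 22.4% and 22.8%.

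Thinned and gated anew, cycling shares were 24.0% and 28.4%, CD8 shares 71.1% and 73.6%, and 8 genes were higher and 20 lower between libraries, where Ly6i (-0.24), Retnla (-0.40), Sema7a (-0.058), Cxcr3 (0.33) and Dgka (0.19) turned. The following were chosen after seeing the data. With complement UMIs under 0.1%, cycling shares were 33.3% and 34.5%, 275 genes were lower between libraries, 554 higher and 380 lower in cycling cells, and the melanocyte median was 2.59 in Irg1+/+. With at least 10 CD3 UMIs, cycling shares were 36.8% and 59.2% (22.3 points apart), CD8 shares 77.4% and 87.9% (10.6 points), 80 genes were higher and 13 lower in cycling cells, and Vcan (0.25 and 0.57), F13a1 (0.20) and Gda (0.068) in Irg1+/+ and C3 (0.75) in Irg1-/- turned. With both conditions, cycling shares were 62.7% and 78.4% (15.8 points), CD8 shares 75.5% and 78.6%, 145 genes were lower between libraries and 338 higher in cycling cells, Clec10a (-0.46) and Sema7a (-0.15) turned, as did F13a1 (0.25) and Gda (0.043) in Irg1+/+, the gamma delta median (1.19) in Irg1-/- and the melanocyte median (1.67) in Irg1+/+. Without cells with 1% or more MHC class II UMIs, Clec10a was at -0.16.

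Counts past 2-fold (higher and lower between libraries, then higher and lower in cycling cells) were 130, 201, 295 and 223 at a minimum of 20 UMIs, 6, 6, 42 and 50 at 200 UMIs, and 1536, 1885, 671 and 512 with no minimum. Averaging CPM over cells instead of summing UMIs gave 91 and 127 between libraries and 75 lower in cycling cells, and a pseudocount of 5 UMIs gave 28 lower between libraries and 87 lower in cycling cells. In CD8 cells 88 genes were lower between libraries, 107 higher and 77 lower in cycling cells, Gzmd was at 0.56 and the gamma delta median 1.27 in Irg1-/-, where 1 gene was measured.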

Other observations

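Cycling T cells with Foxp3 UMIs, which the rule leaves out, were a further set of dividing T cells in the same libraries. Of 84 Irg1+/+ and 39 Irg1-/- cells, 84.5% and 74.4% had a UMI of Cd4, the coreceptor of helper and regulatory T cells, against 12.3% and 12.6% of C1q macrophages, with median depths of 7242.5 and 7653 UMIs against 7977 and 8594. Gzmb, which encodes granzyme B, had a UMI in 92.9% and 92.3% of them, and after thinning to 2000 UMIs in 77.1% and 70.3%. Thinned shares for Gzmb were 62% and 63.1% of cycling T cells and 18.9% and 22.8% of C1q macrophages. Tcf7 had a UMI in 10.7% and 2.56% of the Foxp3 cells, 9 and 1 cells, against 5.81% and 7.78% of C1q macrophages. Its share was thus above that background in the Irg1+/+ and below it in the Irg1-/- library, on few cells in both. Their median share of UMIs in the S-phase list was 0.204% and 0.221%, with 0.251% and 0.404% in cycling T cells. Tyrobp, a myeloid and natural killer cell adaptor, had a UMI in 82.1% and 89.7% of the Foxp3 cells, and its part in these values was not tested.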
